A study of Homo sapiens with 4 samples.

Results

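Cystatins are small proteins that block papain-like cysteine proteases, most of them the cathepsins of the lysosome, by inserting a wedge of conserved loops into the active site. The secreted (type 2) cystatins carry a signal peptide and a pair of disulfide bonds, whereas the stefins CSTA and CSTB lack a signal peptide and act inside the cell. In tumours the balance between cystatins and cathepsins has been studied for its bearing on matrix breakdown and invasion. The genes described here are CST1 (cystatin SN), CST2 (cystatin SA), CST4 (cystatin S), CST3 (cystatin C), CST6 (cystatin E/M), CST7 (cystatin F), CSTA (stefin A) and CSTB (stefin B), which are 8 of the 39259 genes in the deposited table. They were chosen by name from the family after CST1 and CST2 had stood among the largest falls between the groups, so the values of these 8 genes between groups are a description and are given with no p-value.

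The cells were MDA-MB-231, a long-cultured human line of triple-negative breast cancer with a mesenchymal look, and their RNA was sequenced in 4 libraries. In 2 libraries, called WT, the cells were wild type. The other 2 are labelled KO for a knockout of mdig (also called MINA53), a JmjC-domain oxygenase encoded by RIOX2. No treatment was given to either group, and the labels do not say how the knockout was made or whether the KO cells were 1 clone.

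The libraries held 22503981 to 52163811 fragments assigned to genes, with WT replicate 2 the shallowest. RIOX2 RNA measured 8.60 and 8.24 FPKM in WT and 9.23 and 9.82 FPKM in the KO-labelled libraries, so it was not lower under the KO label (log2 change 0.16, limma adjusted p = 0.0546) and the RNA level does not check the label. FPKM counts fragments per kilobase of gene, scaled to the assigned fragments of the library, and is a level per length; comparing it between genes relies on the deposited lengths, which for CST3 and CSTB differ from those of annotated transcripts. Of the markers of the line, VIM and CD44 were abundant in all libraries and ESR1 and PGR had at most 1 fragment in each. ERBB2, listed as low for a triple-negative line, measured 13.25 and 12.7 FPKM in WT and 14.3 and 13.2 FPKM under the KO label, so its RNA went against that list. Among markers of other cells, CD3E of T cells had at most 1 fragment in each library and the pan-leukocyte gene PTPRC measured 0.121 to 0.156 FPKM. The monocyte marker CD14 measured 1.19 and 1.27 FPKM in WT and 0.811 and 0.595 FPKM under the KO label, and its part in the results was not tested. The 3 fibroblast markers summed to at most 0.0332 FPKM. The labels do not say that replicates were separate cultures, so the spread between them may be technical.

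CST1, CST2 and CST4 encode salivary-type cystatins and lie beside each other on chromosome 20, and how far their reads can be told apart bears on every value below. Their coding sequences, taken from GENCODE 29 (GRCh38), are 426 bases each and align without a gap. CST1 differs from CST2 at 37 of these bases and from CST4 at 31, and CST2 differs from CST4 at 32. The stretch around the first protease-binding loop shows this, for the 3 genes at coding bases 190 to 279 and for the more distant CST3 at coding bases 205 to 294. Capitals mark bases that differ from CST1, and each stretch joins 2 exons on the minus strand of chromosome 20.
CST1: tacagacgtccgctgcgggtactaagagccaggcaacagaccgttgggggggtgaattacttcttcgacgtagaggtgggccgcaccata
CST2: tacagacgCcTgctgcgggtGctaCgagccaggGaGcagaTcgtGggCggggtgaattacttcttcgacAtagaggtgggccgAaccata
CST4: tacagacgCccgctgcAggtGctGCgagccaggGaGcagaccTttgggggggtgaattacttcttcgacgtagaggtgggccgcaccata
CST3: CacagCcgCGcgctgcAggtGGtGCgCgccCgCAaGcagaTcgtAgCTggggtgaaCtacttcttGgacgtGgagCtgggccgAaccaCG
The spans with their intron are chr20:23749079-23750677 for CST1, chr20:23825273-23826471 for CST2, chr20:23687151-23688780 for CST4 and chr20:23635317-23637658 for CST3. In this window CST2 differs from CST1 at 11 of 90 bases, CST4 at 8 and CST3 at 25. The loop motif of the family (glutamine, any residue, valine, any residue, glycine) was found once in the translated coding sequence of 7 of the 8 genes, from codon 76 in CST1 and CST2, 81 in CST3 and CST7, 80 in CST6 and 46 in both stefins. CST4 had 0 exact matches.

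Over whole transcripts the longest identical run was 152 bases between CST1 and CST4 and 87 bases between CST1 and CST2. Of all windows of 100 bases in the transcript, 8.02% of those of CST1 and 8.13% of those of CST4 also occurred in a transcript of another gene, against 0 of 649 for CST2. With windows of 50 bases the shares were 27.3%, 30.2% and 8.30% in the same order. For CST3, CST6, CST7, CSTA and CSTB no window of either size was shared. Read length and the handling of reads with several matches were not stated in the labels, and some exchange of fragments among CST1, CST2 and CST4 is possible and was not tested.

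Of the 8 cystatins, 6 passed the filter on low values (1 FPKM or more on average over the 4 libraries), and 4 of them (CST1, CST2, CST3 and CST4) were lower past the threshold in the KO-labelled libraries, with 0 higher. The test was limma on log2(FPKM + 1) over 11716 genes with a Benjamini-Hochberg adjusted p under 0.05. It called 49.9% of all genes tested, 28.4% as lower and 21.6% as higher. Since the genes were chosen with this contrast known, nothing is read from their count. With median-of-ratios scaling 55.3% of the called genes were higher, against 43.2% with FPKM as deposited. The 6 tested cystatins had a median log2 change of −0.20, against −0.041 over all genes tested. For the same reason no shift of the family is read from this median. In bulk RNA, fewer cells that express a gene and less of its RNA per cell cannot be told apart.

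**Figure D1:**
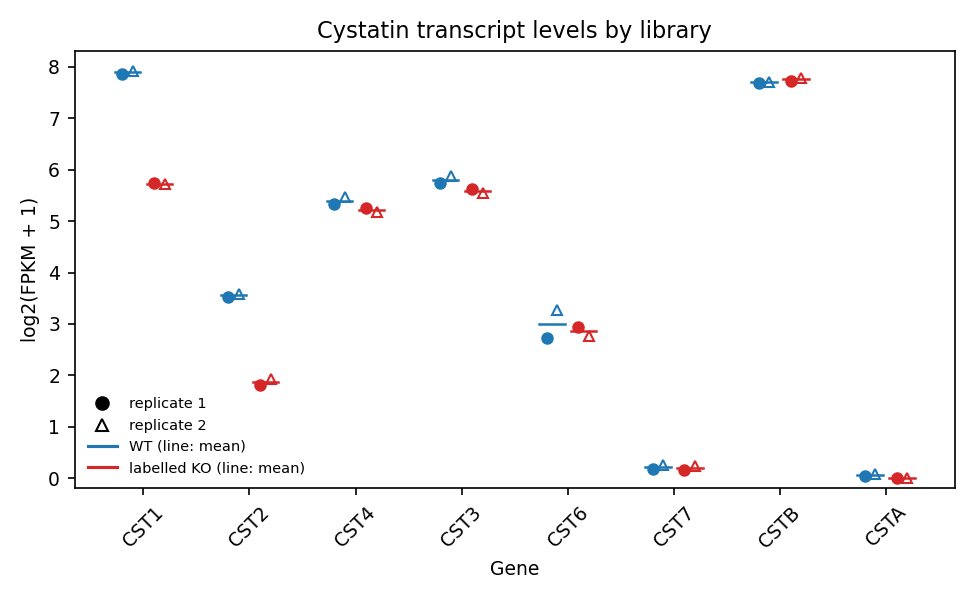
Levels of the 8 cystatins as log2(FPKM + 1), with 1 point per library (circles for replicate 1, triangles for replicate 2) and a line at the mean of each group (blue WT, red labelled KO). CST1 and CST2 are lower in both KO-labelled libraries, CSTB stays near 200 FPKM, CST6 overlaps between groups, and CST7 and CSTA lie near 0.

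CST1 encodes an inhibitor that is secreted in saliva and tears and has been studied as a gene raised in several carcinomas. It lies at chr20:23747562-23750935 on the minus strand (coordinates as deposited) and has 3 exons. Its WT level was 232 FPKM (replicate 1) and 241 FPKM (replicate 2), and the KO-labelled libraries held 52.5 and 51.7 FPKM, from 1918 to 7857 fragments per library. Both KO-labelled libraries were thus far below both WT libraries, with little spread inside either group. The group means were 237 ± 6.16 and 52.1 ± 0.570 FPKM (SD, n = 2), a level 4.54-fold lower in the KO-labelled libraries. The log2 change was −2.16 (SE 0.051), the fourth largest fall of all genes tested on log2(FPKM + 1). That scale understates falls of low genes, so this is not a rank by fold. None of the 509 tested genes with a WT mean of 100 FPKM or more had a larger decrease. CST1 enters that set only through its WT level and was chosen for its fall, so this is a description and no test.

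CST2, a close paralog of CST1 with the same inhibitory fold, was expressed at a much lower level. It measured 10.5 and 11.02 FPKM in WT against 2.53 and 2.80 FPKM in the KO-labelled libraries, from 354, 185, 92 and 109 fragments. The groups did not overlap, and the mean level was 4.04-fold lower. On the log2(FPKM + 1) scale the change was −1.68 (SE 0.064), and with a pseudocount of 0.1 it was −1.98, since this scale understates changes of low genes. As a share of the CST1 level, CST2 stood at 4.52% and 4.57% in WT and at 4.82% and 5.42% in the KO-labelled libraries. CST2 thus stood in nearly the same ratio to CST1 in every library, and whether a part of its fragments came from CST1 transcripts was not tested.

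CST4, the third salivary-type gene, did not share this difference in size. It measured 39.1 and 43.2 FPKM in WT and 37.0 and 35.4 FPKM in the KO-labelled libraries. The groups did not overlap, but the gap between them was smaller than the gap between the WT libraries. Its level was 1.14-fold lower, and the log2 change was −0.18 (SE 0.063). It lies between CST3 and CST1, with 58.5 kb to CST1, and CST1 lies 72.8 kb from CST2.

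**Figure D2:**
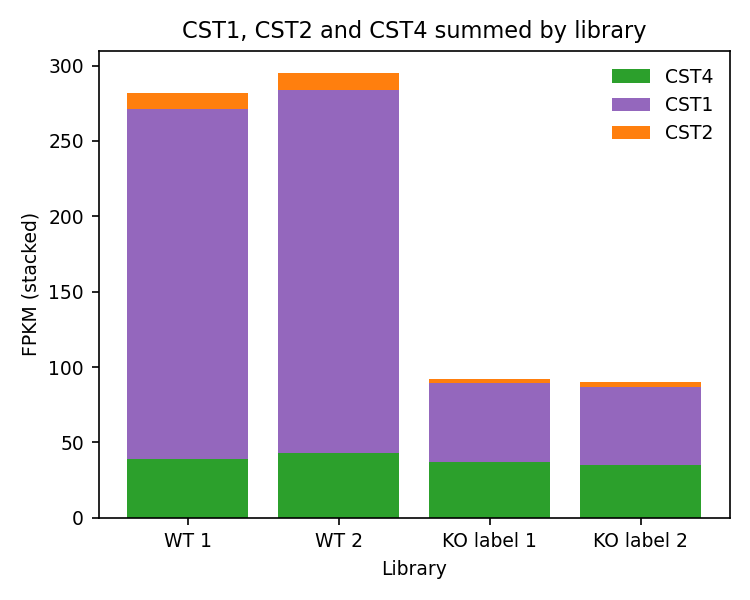
FPKM of CST4 (green), CST1 (purple) and CST2 (orange) stacked for each of the 4 libraries, on a linear axis from 0. The sum is 282 and 295 FPKM in WT and 92.0 and 89.9 FPKM in the KO-labelled libraries, and the CST4 segment is of similar height throughout.

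Adding the 3 similar genes gives a level that does not depend on how counted reads were divided among them. The sum was 282 and 295 FPKM in WT and 92.0 and 89.9 FPKM in the KO-labelled libraries, so it was 3.17-fold lower (means of 288.5 and 90.9 FPKM; log2 change −1.65). The makeup of the sum differed as well: CST1 made up 82.4% and 81.6% of it in WT and 57.1% and 57.5% in the KO-labelled libraries. CST4 made up 13.9% and 14.6% in WT against 40.2% and 39.4%. CST1 stood at 5.93 and 5.58 times the level of CST4 in the WT libraries, against 1.42 and 1.46 times under the KO label, so within each library the most similar pair of the family stood in a different ratio in each group. A pair of libraries per group allows no exact p below 0.333, and none is given.

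CST3 encodes cystatin C, the ubiquitous secreted inhibitor that is also measured in blood as a marker of kidney function. It measured 52.4 and 57.6 FPKM in WT and 48.0 and 45.7 FPKM in the KO-labelled libraries, from 4609 to 8477 fragments. The groups did not overlap, and the level was 1.17-fold lower (log2 change −0.23, SE 0.063). The other tested genes within 10 Mb, other cystatins among them, had a median log2 change of −0.13 for either CST3 or CST4. With the cystatins left out that median was −0.11 for either gene. Over all genes tested the median size of a log2 change, in either direction, was 0.18. After subtraction of the medians of −0.13 the changes of CST3 and CST4 were −0.096 and −0.053. Neither gene was then past the threshold, nor with median-of-ratios scaling, with no filter, or without either KO-labelled library, where the changes of CST3 ranged from −0.26 to −0.16 and those of CST4 from −0.21 to −0.12. Over the 14 alternatives the change ranged from −2.19 to −2.04 for CST1 and from −1.999 to −1.57 for CST2, which as genes chosen for this difference is a range of values only. CST3 was past the threshold in 10 of 15 settings and CST4 in 6.

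**Figure D3:**
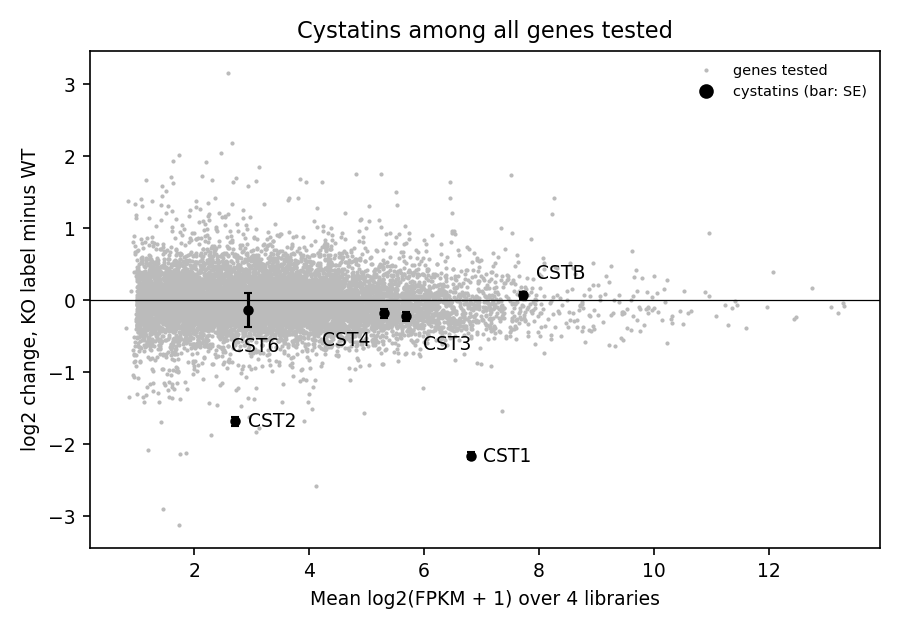
Change between groups (log2, KO label minus WT) against mean level for the 11716 genes tested (grey) and the 6 tested cystatins (black, bars are SE). CST1 and CST2 lie below the cloud at −2.16 and −1.68, and the other 4 lie within it.

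CST6 encodes cystatin E/M, which inhibits both cathepsins and legumain and has been studied as a gene silenced in breast cancers. It measured 5.61 and 8.71 FPKM in WT and 6.72 and 5.83 FPKM in the KO-labelled libraries, from 116 to 194 fragments. Both KO-labelled libraries lay between the WT libraries. Its log2 change was −0.14 (SE 0.24), not past the threshold, and it changed sign without WT replicate 2 (0.14) while without WT replicate 1 it was −0.42. CST7 encodes cystatin F, an inhibitor of immune cells that is targeted to lysosomes. Over both WT libraries 9 fragments fell on CST7, and over both KO-labelled libraries 13. Per assigned fragment the KO-labelled level was 0.969 of the WT level, with an exact 95% interval from 0.383 to 2.57 that covers counting error only. A difference of CST7 inside that interval was not detectable at this depth.

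The stefins differed sharply in level from one another. CSTB, the broadly expressed intracellular inhibitor that is mutated in a progressive myoclonus epilepsy, measured 204 and 209 FPKM in WT and 211 and 221 FPKM in the KO-labelled libraries. Its values did not overlap between groups, but the log2 change of 0.063 (SE 0.052) did not pass the threshold, and it passed it in none of the 14 alternatives. CSTA, an inhibitor typical of keratinocytes and other squamous epithelia, had 1 fragment in each WT library and 0 in each KO-labelled library. A count of 0 over both KO-labelled libraries allows up to 0.0400 FPKM (3 fragments, counting error only), so no fold is given.

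The order of the 8 genes by level depended on the gene lengths used. With the deposited lengths it was CST1, CSTB, CST3, CST4, CST2, CST6, CST7 and CSTA in WT, and CSTB, CST1, CST3, CST4, CST6, CST2, CST7 and CSTA in the KO-labelled libraries, with no overlap between neighbours. The table gives CST3 a length of 3553 bp, against 832 to 3286 bases for its 3 GENCODE 29 transcripts, and CSTB a length of 588 bp, against 1855 to 3744 bases for its 4 transcripts. With the main GENCODE transcript of each gene (873 bases for CST3 and 2164 for CSTB), a choice made after the data were seen, the order began with CST1, CST3 and CSTB in WT, where CST1 and CST3 overlapped. In the KO-labelled libraries it then began with CST3, CSTB and CST1.

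Against CST1, CSTB stood at 0.879 and 0.867 of its level in WT and at 4.02 and 4.27 times its level in the KO-labelled libraries with the deposited lengths. With main transcripts these values were 0.243 and 0.239 in WT and 1.11 and 1.18 in the KO-labelled libraries, and with the longest transcripts CSTB stayed below CST1 in both groups (0.640 and 0.680 under the KO label). CST3 stood at 0.226 and 0.239 of the CST1 level in WT and at 0.915 and 0.885 of it in the KO-labelled libraries with the deposited lengths. With main transcripts it stood at 0.932 and 0.988 in WT and at 3.78 and 3.65 in the KO-labelled libraries. Whichever gene lies higher, both ratios were higher in the KO-labelled libraries. The mean WT ratio was 0.211 of the KO-labelled one for CSTB and 0.2585 of it for CST3. A length is a constant for each gene, so these factors cannot change with the lengths. CST2 lay above CST6 in WT and below it in the KO-labelled libraries with deposited and with main transcript lengths.

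The 8 genes summed to 544 and 571 FPKM in WT and to 358 and 362 FPKM in the KO-labelled libraries, 1.55-fold lower. With GENCODE lengths the sum was 1.66-fold lower for main, 1.69-fold for shortest and 2.13-fold for longest transcripts. CST1 made up 42.7% and 42.2% of the sum in WT against 14.7% and 14.3%, and with main transcripts 41.5% and 40.3% against 14.8% and 14.99%. The CSTB share rested on its length, at 37.5% and 36.6% in WT against 59.0% and 60.9% with the deposited length and 10.1% and 9.62% against 16.4% and 17.7% with the main transcript.

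The chromosome 20 cystatins stand in a row, and most of the row was silent in these cells. CSTL1, CST11 and CST8 had 0 fragments in every library, and CST9L, CST9 and CST5 had at most 2 in any library. Outside the cluster, the cystatin-related liver genes AHSG, FETUB, HRG and KNG1 also had 0. None of the 10 other cystatin superfamily genes reached 1 FPKM in any library. The expressed stretch was thus CST3, CST4, CST1 and CST2, followed by CST5 after 49.2 kb, with at most 1 fragment. The 3 salivary genes amylase (AMY1A), statherin (STATH) and mucin 7 (MUC7), which mark the gland where CST1, CST2 and CST4 are best known, had 0 fragments in all libraries.

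Around the chromosome 20 cystatins the changes were smaller than those of CST1 and CST2. Of 14 other tested genes within 1 Mb of a cystatin on chromosome 20, 7 fell and 0 rose (limma, Benjamini-Hochberg over all genes tested), against 49.9% called over all genes tested (28.4% lower and 21.6% higher). The 14 genes had a median log2 change of −0.18 and a range from −0.52 to 0.17. Only 4 of them (THBD, NXT1, GZF1 and NAPB) lay within 1 Mb of CST1, CST2, CST3 or CST4, and 3 of these fell (median −0.21). The other 10 lay within 1 Mb of CST7, which starts 1070 kb beyond CST5, and 4 of these fell (median −0.14). NXT1, a factor of RNA export, fell by 0.43 (limma, adjusted p = 0.00691), from 27.5 and 33.4 to 21.9 and 22.7 FPKM. THBD, the thrombin receptor thrombomodulin, fell by 0.20 (limma, adjusted p = 0.0195). On the far side, beside CST7, APMAP fell by 0.37 (limma, adjusted p = 0.000615), whereas PYGB was not past the threshold (0.063, limma adjusted p = 0.320). ACSS1, an acetyl-CoA synthetase of mitochondria, is counted among the genes that fell, with a change of −0.52. It measured 1.86 and 1.69 FPKM in WT and 0.855 and 1.02 FPKM under the KO label. Since ACSS1 passed the filter only through the WT libraries, no p is given for it. No tested neighbour had a change near the −2.16 and −1.68 of CST1 and CST2.

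**Figure D4:**
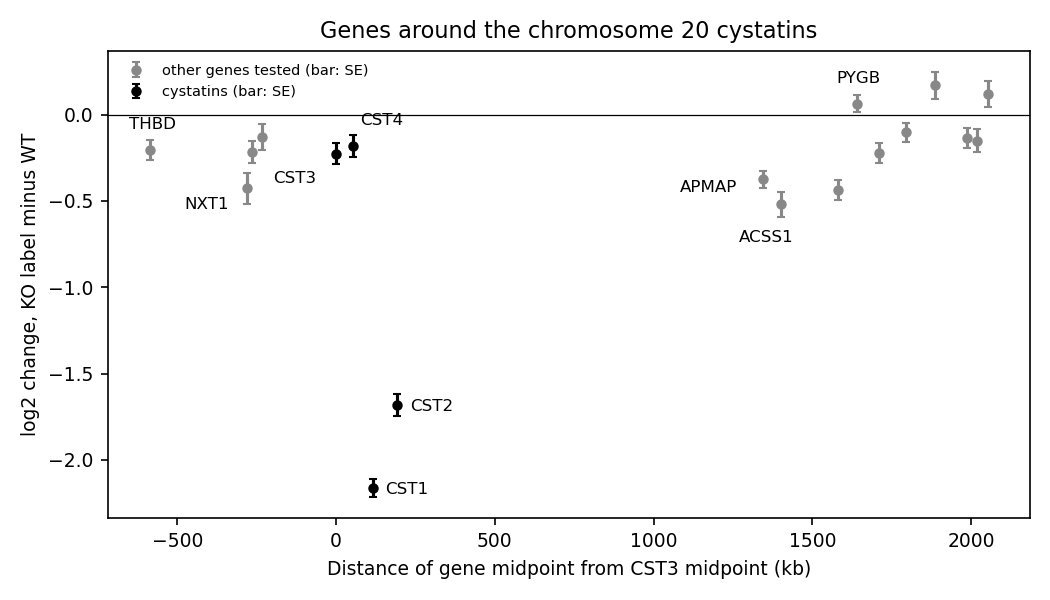
Change between groups (log2, KO label minus WT, bars are SE) of genes tested within 1 Mb of a chromosome 20 cystatin, against the distance of the gene's midpoint from that of CST3 in kb. CST1 and CST2 lie at −2.16 and −1.68, while the 14 other genes (grey), CST3 and CST4 lie between −0.52 and 0.17.

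Cystatins act on cysteine cathepsins, and CST3, CST6 and CST7 also on legumain, so the 12 genes of these proteases were read from the same fit. Of 9 that were tested, 2 rose (CTSO and CTSB), 2 fell (CTSC and LGMN) and 5 did not pass the threshold, a share near that of all genes (49.9%). The filter bears on this count, since CTSO entered it only through the KO-labelled libraries and CTSV, which was lower there, was left out. With no filter 3 of the 12 fell and 1 rose, against 19.0% of all 25798 genes called in that fit. Their median log2 change was 0.022, against −0.041 over all genes tested. CTSC, or dipeptidyl peptidase I, which activates granule serine proteases, measured 24.1 and 24.5 FPKM in WT and 12.3 and 12.6 FPKM in the KO-labelled libraries. It was 1.95-fold lower (log2 change −0.91, SE 0.053, limma adjusted p = 1.34e-05), and the groups were far apart against their spread. Legumain (LGMN), an asparaginyl endopeptidase of the lysosome, fell from 24.9 and 24.5 to 16.5 and 16.9 FPKM (−0.54, SE 0.053, limma adjusted p = 0.00015).

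CTSO, a little-studied member of the papain family, rose from 0.740 and 0.781 to 2.50 and 2.66 FPKM (1.02, SE 0.064). Since it passed the filter only through the KO-labelled libraries, its p is taken from the fit with no filter (limma, adjusted p = 0.00562). The gene lies on chromosome 4, where the other genes within 10 Mb had a median change of 0.45. With that median subtracted its change was 0.57, and no p is given, since that fit used the same filter. CTSB, cathepsin B, the most studied of these proteases in tumour invasion, rose from 59.5 and 59.9 to 66.4 and 66.2 FPKM (0.15, SE 0.050, limma adjusted p = 0.0377). This small rise was past the threshold in 10 of 15 settings, and was not so when either KO-labelled library was left out (adjusted p = 0.226 without replicate 1 and 0.216 without replicate 2), with adjusted p-values from 0.00281 to 0.226 over the alternatives.

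CTSL, which encodes cathepsin L, measured 26.4 and 25.6 FPKM in WT and 25.5 and 27.5 FPKM under the KO label, and the groups overlapped (log2 change 0.022, limma adjusted p = 0.769). CTSZ, the most abundant of the 12, measured 193 and 188 FPKM in WT and 202 and 199.9 FPKM in the KO-labelled libraries (0.078, limma adjusted p = 0.224), and passed the threshold in 3 of 15 settings. CTSF, CTSK and CTSH were not past the threshold either. CTSS, CTSV and CTSW were not tested, since their means lay under 1 FPKM. Of these CTSV, a close relative of CTSL, measured 1.44 and 1.42 FPKM in WT and 0.536 and 0.445 FPKM in the KO-labelled libraries, so its groups did not overlap.

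**Figure D5:**
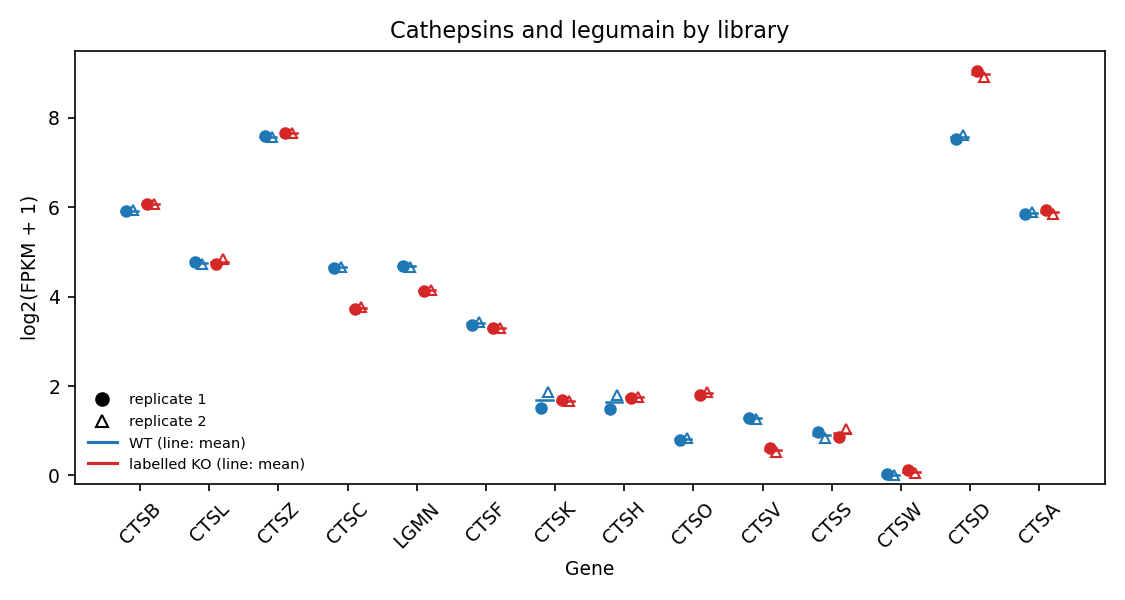
Levels of the 12 cysteine protease genes, and of CTSD and CTSA, as log2(FPKM + 1), with 1 point per library and a line at the mean of each group (blue WT, red labelled KO). CTSC and LGMN are lower and CTSO and CTSD higher in both KO-labelled libraries, and CTSZ, CTSL and CTSB differ by at most 0.15.

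The 12 proteases summed to 344 and 340.5 FPKM in WT and to 340.3 and 340.4 FPKM under the KO label, with CTSZ at 55.2% to 59.4% of the sum. The summed cystatin level was 1.58 and 1.68 times that sum in WT and 1.05 and 1.06 times in the KO-labelled libraries. For the 6 secreted-type cystatins alone it was 0.988 and 1.06 times in WT and 0.432 and 0.416 times in the KO-labelled libraries. These ratios use the deposited lengths, and for sums of genes the difference between groups depends on the lengths as well as the level does. They were not computed with other lengths. As ratios of RNA levels they say nothing of protein, secretion or inhibition.

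Of the cathepsins that cystatins do not inhibit, the aspartic protease CTSD rose. It measured 183 and 194 FPKM in WT and 528 and 479.6 FPKM in the KO-labelled libraries, with no overlap. The level was 2.67-fold higher (log2 change 1.41, SE 0.063, limma adjusted p = 4.03e-06) and stayed past the threshold in all 14 alternatives. CTSA, a serine carboxypeptidase, measured 56.65 and 58.3 FPKM in WT and 59.8 and 56.5 FPKM under the KO label, with overlap (limma, adjusted p = 0.824). Among other inhibitors of cysteine proteases, the calpain inhibitor CAST (calpastatin) rose from 64.1 and 60.4 to 70.7 and 72.6 FPKM (0.20, SE 0.055, limma adjusted p = 0.0164). That call was lost with no filter (adjusted p = 0.0621) and without either KO-labelled library (0.0828 and 0.151). SERPINB3, SERPINB4 and SERPINB13, serpins of squamous epithelia, had at most 2 fragments in any library.

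The genes whose pattern was most like that of CST1 were taken as the 5 protein-coding genes nearest to it by Euclidean distance over the 4 libraries, on log2(FPKM + 1) centred on each gene's mean. They were GAL (distance 0.0764), MMP1 (0.157), SHISA3 (0.332), KISS1 (0.449) and IL24 (0.478). GAL encodes the neuropeptide galanin, MMP1 interstitial collagenase, KISS1 the kisspeptin precursor and IL24 a cytokine of the IL-10 family. CST1 was the most abundant of the 6 in WT, where KISS1 measured 38.3 and 45.3 FPKM and GAL 6.15 and 5.93 FPKM. With 4 libraries in a pair of groups, this likeness is mostly a like size of the difference between groups on this scale. Since the scale understates changes of low genes, it is not a likeness of folds. GAL measured 0.630 and 0.563 FPKM under the KO label, against 52.5 and 51.7 FPKM for CST1. For CST6, whose WT replicate 2 was high, the nearest 3 were PYCARD (distance 0.109), IRF7 (0.110) and NPIPB5 (0.146), each with its highest value in WT replicate 2.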

How the data were processed

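The authors deposited 1 table of FPKM values for 4 libraries of total RNA, with 39259 genes by Entrez ID, exon coordinates and summed exon length, per the file headers. STAR, Subread and DESeq2 are named in the submitters' processing notes without version or role, with the genome build and strand setting not given in the sources used here. FPKM times length gave whole fragments for 100% of values above 0 (tolerance 0.001), which were used for depth and counting intervals. Columns of other samples numbered 0. Symbols came from RefSeq (GRCh38.p14) for 96.0% of genes, and 98.4% of matched genes on 1 chromosome lay within 1000 bp of that build at either end.

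KO minus WT was fitted with limma 3.58.1 (R 4.3.3, with its trend and robust options) on log2(FPKM + 1), keeping genes that averaged 1 FPKM or more, with Benjamini-Hochberg adjustment over all 11716 and a threshold of 0.05. Of the steps, this limma fit was tested on simulated data. Members and lists were chosen with earlier results of these data known. The genes named are the members, the 12 cysteine proteases, other cystatin-type genes, other inhibitors and cathepsins, genes within 1 Mb on chromosome 20 and the nearest patterns. Coding sequences and transcripts came from GENCODE 29 in place of the protein comparison planned, and promoters (matched for CST3) were not compared. Replicates were no repeat deposits (chi-square over its degrees of freedom 8.23 between WT libraries and 5.69 between KO-labelled ones) and were kept apart. Alternatives were another pseudocount, filters, scalings, variance models, voom, bin medians within 10 Mb, replicate blocks, each library left out and, added later, GENCODE lengths. A marker gene and a sequence stretch are not reported here.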

Additional observations from a re-analysis of the deposited data

How the results depend on the processing

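The count of cystatins past the threshold was 4 and fell to 2 (CST1 and CST2) with no filter, with median-of-ratios scaling and with bin medians subtracted; without 1 library it ranged from 2 (without either KO-labelled library) to 5 (without WT replicate 1). The cause was not tested. The count of all genes past the threshold was 5850 and ranged from 3521 (without KO replicate 2) and 3808 (without KO replicate 1) to 7077 (without WT replicate 1). In these fits the lone library of a group was assumed to vary like the other pair. The log2 change of the summed CST1, CST2 and CST4 was −1.59 with median-of-ratios scaling, and −1.69 to −1.62 without 1 library. The cysteine proteases past the threshold were 4 of 9 tested, against 49.9% of all genes. They were 3 of 9 without the trend and robust options (49.1% of all genes) and 6 of 9 with bin medians subtracted (39.6%). With a filter of 5 FPKM they were 3 of 6 (53.7%), and with no filter 4 of 12 (19.0%). The replicate numbers name no shared culture and were not treated as pairs. With a replicate block 5377 genes, 3 cystatins and 3 cysteine proteases were past the threshold. Deviations of same-numbered libraries correlated at −0.225, and a crossed replicate block, added after the data were seen, gave 6660 genes, 4 cystatins and 4 proteases. Depth limits CST7 and CSTA, with at most 8 and 1 fragments per library.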

Other observations

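In fragments, CST3 and CST1 were close in WT, with 8415 and 7857 in replicate 1 and 4609 and 4061 in replicate 2. CDH1, the epithelial cadherin, was low throughout and measured 0.177 and 0.128 FPKM in WT and 0.597 and 0.625 FPKM in the KO-labelled libraries, and SNAI2 measured 2.86 and 2.65 FPKM in WT and 7.33 and 7.40 FPKM in the KO-labelled libraries; both are values from the marker lists and stand beside the cystatin results with no test of a link.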
